A study of Mus musculus with 15 samples.

Results

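Bcat1, Gatm and 7 other genes of amino acid handling were followed across 5 related mouse mammary epithelial lines. The members were chosen by name: Bcat1 and Bcat2, Gatm, the transporters Slc38a1, Slc38a2, Slc7a5 and Slc7a11, and the biosynthetic enzymes Asns and Psat1. All 9 were on the array, through 17 of the 34945 probe sets (groups of short probes against one transcript) that carry a single gene symbol, and they make up 9 of 18193 genes measured. Bcat1, Gatm and Slc38a1 were picked because their signal is high in the line E1KD, and Bcat1 and Gatm also because it is low again in the lines derived from E1KD. Their differences among NMuMG, E1KD and the derived lines are therefore given as a description, with no test. The other 6 members were tested in all 10 comparisons made. Slc38a1 was also tested among the 3 derived lines, whose levels were not part of its choice; for Bcat1 and Gatm they were, and no test is given.

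NMuMG is a wild-type, non-tumorigenic line from normal mouse mammary gland with no selection in mice. E1KD is NMuMG with hnRNP E1, an RNA-binding protein encoded by Pcbp1, silenced, and it was the line used for passage in mice. M1P was isolated from a primary mammary tumour after 1 passage, L1P from the lungs, also after 1 passage, and L2P from the lungs after 2, in NOD/SCID mice, which lack working T and B cells. All 3 derived lines carry the silencing of E1KD, and all 5 lines were grown in the same serum-containing medium and measured on 3 arrays each. Each condition is 1 line, no line with a control vector was analysed here, and the labels do not say whether its 3 arrays are of separate cultures. P-values therefore measure the spread between arrays within lines, which may be technical. For each gene that spread is pooled over all 5 lines, not taken from the compared lines alone. The wider spread of the M1P arrays, given below, thus enters comparisons without M1P. Comparisons with M1P likewise use the narrower spread of the other lines.

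Cells move large neutral amino acids through exchangers and sodium-coupled carriers and then spend them on protein, energy and smaller molecules. BCAT1 in the cytosol and BCAT2 in mitochondria take the amino group from leucine, isoleucine and valine and use it to form glutamate. BCAT1 is normally expressed in few adult tissues but often in tumours. GATM makes guanidinoacetate, the precursor of creatine, from arginine and glycine. When amino acids run short, the kinase GCN2 and the transcription factor ATF4 raise many transporter and synthesis genes, Asns, Psat1, Slc7a11, Slc7a5 and Slc38a2 among them, in part through composite sites with the core TGATGNAA.

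The upstream sequence of the members was searched for that core because it is the best known shared control element of this group. RefSeq windows on GRCm38.p6 were given for 7 of the 9 members, 10 windows in all; Slc38a1 and Slc7a5 had none in the table used. The 250 bases before the start site were searched on both strands. TGATGNAA was found in Slc7a11, with 2 matches on opposite strands 66 and 47 bases upstream, and in Asns, 23 bases upstream. It occurs in 3.45% of 32851 such windows. The next lines show 60 bases around the matches of these genes, whose signal is compared among lines below, on the minus strand at chr3:50443637-50443696 for Slc7a11 and chr6:7693210-7693269 for Asns, with the matches in capitals.
Slc7a11: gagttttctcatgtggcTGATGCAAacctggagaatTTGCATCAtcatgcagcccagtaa
Asns: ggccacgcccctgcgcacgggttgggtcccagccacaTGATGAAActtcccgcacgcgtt
The E-box CACGTG, bound by MYC and related factors and present in 6.02% of windows, was found in none of the 10. TGACNNNGC, the core of antioxidant response elements and present in 10.2% of windows, was found in Asns 172 bases and in Slc38a2 27 bases upstream. Bcat1 and Gatm held none of the 3 patterns in these windows. The 100 bases before their annotated starts are printed, since these genes differed most between E1KD and its derived lines: minus strand, chr6:145076158-145076257 for the first Bcat1 start and chr2:122611278-122611377 for Gatm. A match is a description of letters and not a shown site, and a missing match says only that these letters are not in the window.
Bcat1: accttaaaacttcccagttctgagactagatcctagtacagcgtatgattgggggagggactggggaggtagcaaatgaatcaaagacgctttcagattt
Gatm: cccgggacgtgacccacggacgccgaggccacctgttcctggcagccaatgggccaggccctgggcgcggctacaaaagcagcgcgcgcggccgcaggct

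Values below are log2 signals, so a difference of 1 is a doubling; ± gives the standard error of a difference. Pcbp1, the silenced gene, lay between 12.57 and 12.76 on the NMuMG arrays and between 7.95 and 10.09 on the 12 arrays of silenced lines. Its mean was not equal among the latter: 9.83 (M1P), 9.25 (E1KD), 8.49 (L1P) and 8.15 (L2P). L1P less M1P was -1.33 (limma adjusted p = 0.00177), L2P less M1P -1.67 (0.000461) and L2P less E1KD -1.10 (0.0113). M1P less E1KD (0.58), L1P less E1KD (-0.75) and L2P less L1P (-0.34) did not pass. The part of these Pcbp1 levels in other differences among silenced lines was not tested. Krt8 and Krt18, keratins of simple epithelium, had line means of 13.8 to 14.2 and 13.6 to 14.1, whereas the epithelial markers Epcam (5.03 to 5.57) and Krt5 (4.57 to 5.10) were low in all 5 lines. The M1P arrays stood apart from each other, with a mean correlation with their own line of 0.948 to 0.972 against 0.981 to 0.994 for every other array. Results on M1P are given also without M1P arrays 1 and 2. These correlations do not single out that pair: array 2 had the highest (0.972), array 1 had 0.948 and the kept array 3 had 0.954. The setting leaves 1 M1P array that is assumed to vary like the other lines. No spread within M1P enters the p-values of that setting. In M1P, the summed log2 signal of 10 leukocyte markers was 47.4 to 52.3 against 45.3 to 46.5 in E1KD, that of 7 alveolar and airway markers 32.5 to 37.4 against 30.3 to 31.2, that of 7 fibroblast markers 24.8 to 30.3 against 23.3 to 24.2, and that of 6 proliferation genes 58.8 to 67.5 against 68.0 to 70.0. On average 10 of 10 leukocyte, 7 of 7 alveolar and airway and 6 of 7 fibroblast markers were higher in M1P than in E1KD, and 0, 2 and 1 of these passed by limma (3, 4 and 4 before adjustment, at p under 0.05), where 27.6% of all genes passed. Their median differences were 0.32, 0.38 and 0.32, against 0.20 for all genes. Markers of endothelium (7 of 7), skeletal muscle (5 of 5) and mammary epithelium (7 of 8) were higher as well. Among the alveolar and airway markers Foxj1 moved most (line mean 5.55 in E1KD, 7.54 in M1P), and Sftpc (3.83, 4.06) and Scgb1a1 (2.63, 2.69) moved little. Of the 6 proliferation genes 4 were lower and 2 higher in M1P, with 2 falls and 1 rise passing by limma. Mki67 (11.07, 7.98) and Top2a (11.46, 8.62) fell most, while Mcm5 was higher (11.43, 12.02). The part of these shifts in the M1P results was not tested.

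Bcat1 was high in E1KD and nowhere else. Its log2 signal was 2.40, 2.42 and 2.51 in NMuMG, 7.94, 6.84 and 7.58 in E1KD, 3.34, 3.75 and 3.76 in M1P, 2.61, 2.54 and 2.33 in L1P, and 2.52, 2.23 and 2.18 in L2P. The E1KD arrays were far above all others, the M1P arrays formed a second step, and the lung lines overlapped NMuMG. The difference between E1KD and NMuMG was 5.01 (95% interval 4.52 to 5.50), or 32.2-fold. M1P lay 14.3-fold, L1P 31.2-fold and L2P 35.3-fold below E1KD. Against NMuMG, M1P remained higher by 1.17 (0.68 to 1.66), while the difference was 0.05 (-0.44 to 0.54) for L1P and -0.13 (-0.62 to 0.36) for L2P. Detection calls were not used. A low transcript level and array background cannot be told apart in signals this low, and fewer cells with the transcript cannot be told from less of it per cell.

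The step of Bcat1 in M1P is likewise a description, since the low derived-line levels were part of its choice. L1P lay below M1P by 1.13 (-1.13, 95% interval -1.62 to -0.64) and L2P by 1.31 (-1.31, -1.79 to -0.82), and all 3 M1P arrays were above all 3 arrays of each lung line. Without M1P arrays 1 and 2 the differences were -1.27 and -1.45. The median difference of all genes was -0.25 and -0.20 in these comparisons. L2P differed from L1P by -0.18 (-0.67 to 0.31).

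Gatm was on in E1KD alone. Its log2 signal was 7.32, 7.40 and 7.53 in E1KD, between 2.42 and 2.74 in NMuMG, 2.40 and 2.53 in M1P, 2.05 and 2.43 in L1P, and 2.37 and 2.51 in L2P. The E1KD arrays lay close together and no other array came near them. E1KD exceeded NMuMG by 4.85 (4.58 to 5.13), or 28.9-fold, and M1P, L1P and L2P lay 31-fold, 34.7-fold and 31.4-fold below E1KD. Unlike Bcat1, Gatm showed no second step in M1P: the difference from NMuMG was -0.10 (-0.38 to 0.17), and those of L1P and L2P from M1P were -0.16 (-0.44 to 0.11) and -0.02 (-0.29 to 0.26). Whether Gatm and Bcat1 differ from each other in this step was not tested. Signals of Gatm outside E1KD are in the range where low level and background cannot be told apart.

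Slc38a1, a sodium-coupled carrier of glutamine and other neutral amino acids (SNAT1), was high in E1KD and stayed high in every derived line. Its log2 signal was 3.27, 3.46 and 3.44 in NMuMG, 8.87, 8.69 and 8.86 in E1KD, 6.55, 8.35 and 8.14 in M1P, 9.56, 9.30 and 9.45 in L1P, and 9.37, 9.92 and 9.71 in L2P. In order of mean level the lines ran NMuMG, M1P, E1KD, L1P, L2P, and the arrays of E1KD overlapped those of none of the other lines. E1KD exceeded NMuMG by 5.42 (4.67 to 6.16), or 42.7-fold, M1P lay 2.18-fold below E1KD, and the lung lines exceeded NMuMG 66-fold (L1P) and 77.4-fold (L2P). The NMuMG signals are again too low to be told from background, and with the other probe set of the gene, 1415903_at, these folds were 4.5 (E1KD), 4.64 (L1P) and 5.46 (L2P). Slc38a1 was higher in the lung lines than in M1P, by 1.76 ± 0.35 for L1P (limma, adjusted p = 0.00427) and 1.99 ± 0.35 for L2P (adjusted p = 0.00268). Without M1P arrays 1 and 2, the first of which was the lowest M1P array, the differences were 1.30 and 1.53. The 3 M1P arrays had a standard deviation of 0.99, against 0.10 to 0.28 in the other lines, and 1 array adds no such spread. With only the compared lines in the model neither the L1P nor the L2P difference passed (limma adjusted p = 0.0908 and 0.123). L2P exceeded L1P by 0.23 (-0.52 to 0.97), which did not pass the test.

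**Figure D1:**
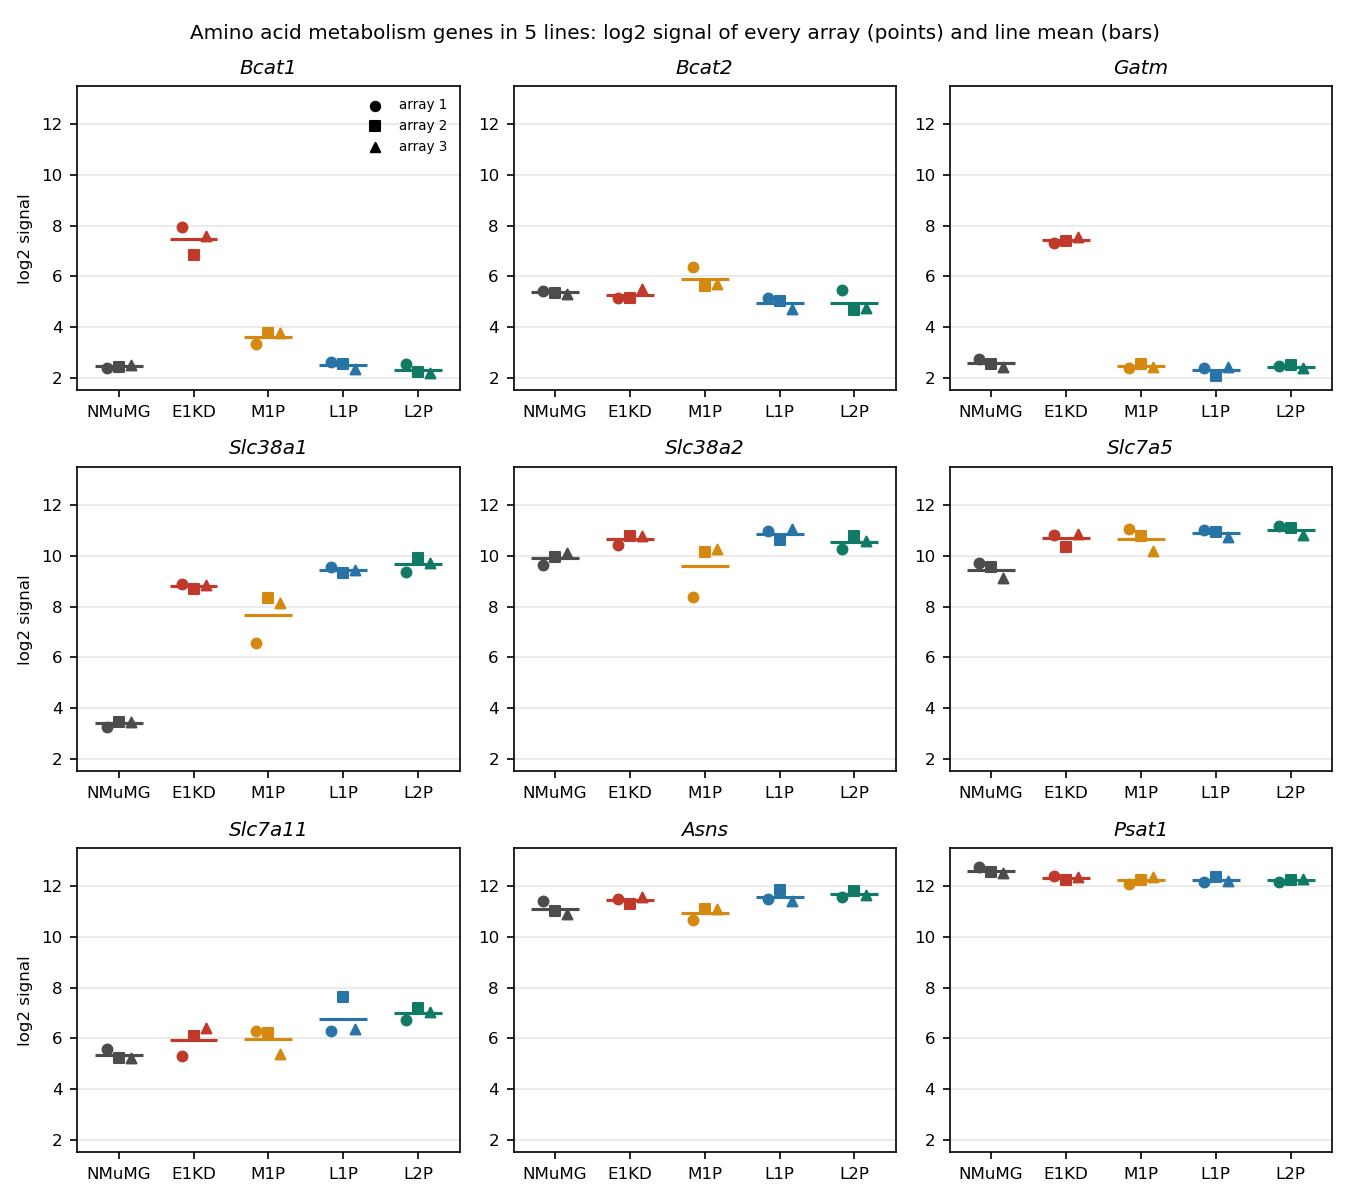
Log2 signal (y axis) of the 9 genes on each of 15 arrays (points, 3 per line, shaped by array number) with the line mean (bars), for the 5 lines on the x axis. Bcat1 and Gatm are above 6.8 in E1KD only, Slc38a1 is above 6.5 in all 4 silenced lines, and the other 6 genes show smaller steps.

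The remaining probe sets of Bcat1 and Slc38a1 gave the same direction between E1KD and NMuMG on a smaller scale. Bcat1 1430111_a_at read 3.17 to 3.46 in NMuMG, 4.04 to 4.59 in E1KD, 3.45 to 3.88 in M1P, 3.22 to 3.45 in L1P and 3.11 to 3.39 in L2P, a difference of 1.04 (0.69 to 1.40) between E1KD and NMuMG. Bcat1 1455699_at differed by 0.60 (0.08 to 1.12), with overlapping arrays. The step of Bcat1 from M1P to the lung lines was smaller on both: -0.41 (-0.77 to -0.06) for L1P, with overlapping arrays, and -0.53 (-0.89 to -0.17) for L2P on 1430111_a_at, and -0.39 (-0.91 to 0.13) and -0.32 (-0.84 to 0.20) on 1455699_at. For Slc38a1, 1415903_at read 5.14 to 5.74 in NMuMG, 7.61 to 7.66 in E1KD, 7.30 to 7.76 in M1P, 7.61 to 7.78 in L1P and 7.78 to 8.09 in L2P. It differed by 2.17 (1.83 to 2.51) between E1KD and NMuMG. On this probe set the step from M1P to the lung lines did not pass the test (0.14, adjusted p = 0.479 for L1P; 0.37, adjusted p = 0.0899 for L2P, limma over all single-symbol probe sets). The higher signal of Slc38a1 in the lung lines than in M1P is thus seen with 1 of its 2 probe sets.

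**Figure D2:**
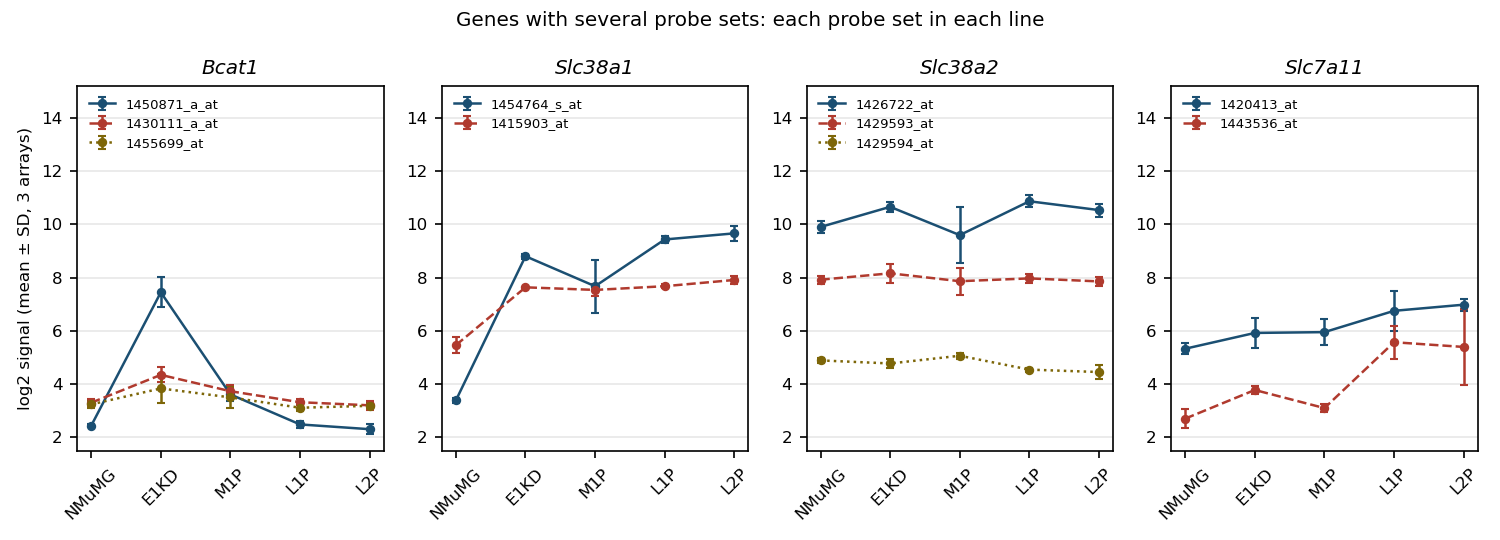
Log2 signal (y axis, mean and SD of 3 arrays) of each probe set of Bcat1, Slc38a1, Slc38a2 and Slc7a11 in the 5 lines (x axis). For Bcat1 1450871_a_at spans 2.31 to 7.45 while the other probe sets stay under 4.4, and for Slc38a2 the probe sets do not move together.

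Genes with the profile most like these 3 were taken among the 1212 genes whose line means span at least 2 log2 units, by Pearson correlation over the 15 arrays; the arrays of a line are not independent, and the values describe likeness only. For Bcat1 they were Chst11 (0.98), a chondroitin sulfotransferase, Vat1l (0.96), Gatm (0.96), Eprn (0.95) and Abcc2 (0.93), an efflux transporter. For Gatm they were Vat1l (0.98), Chst11 (0.96), Bcat1 (0.96), Slco1a5 (0.95), an organic anion transporter, and Gm6958 (0.95). Bcat1 and Gatm, both picked as high in E1KD and low in the derived lines, were bound to correlate (0.99 over the 12 arrays outside M1P), so their place in each other's list is no finding; both lists held Vat1l and Chst11. Chst11 had a line mean of 4.68 in E1KD and 2.41 to 2.68 elsewhere, and Vat1l 5.28 and 2.79 to 3.05. Slc38a1 had other neighbours: the receptor phosphatase Ptprg (0.99), the adenylate kinase Ak4 (0.98), Lhfp (0.98), the peroxidasin Pxdn (0.97) and the small GTPase Rab32 (0.97). None of these 5 was in the lists of Bcat1 or Gatm. Correlations of Slc38a1 with Bcat1 (0.21) and Gatm (0.18) were low. Bcat1 and Gatm were picked as low in the derived lines and Slc38a1 was not. The contrast with Slc38a1 thus follows in part from the choice and is no finding either.

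**Figure D3:**
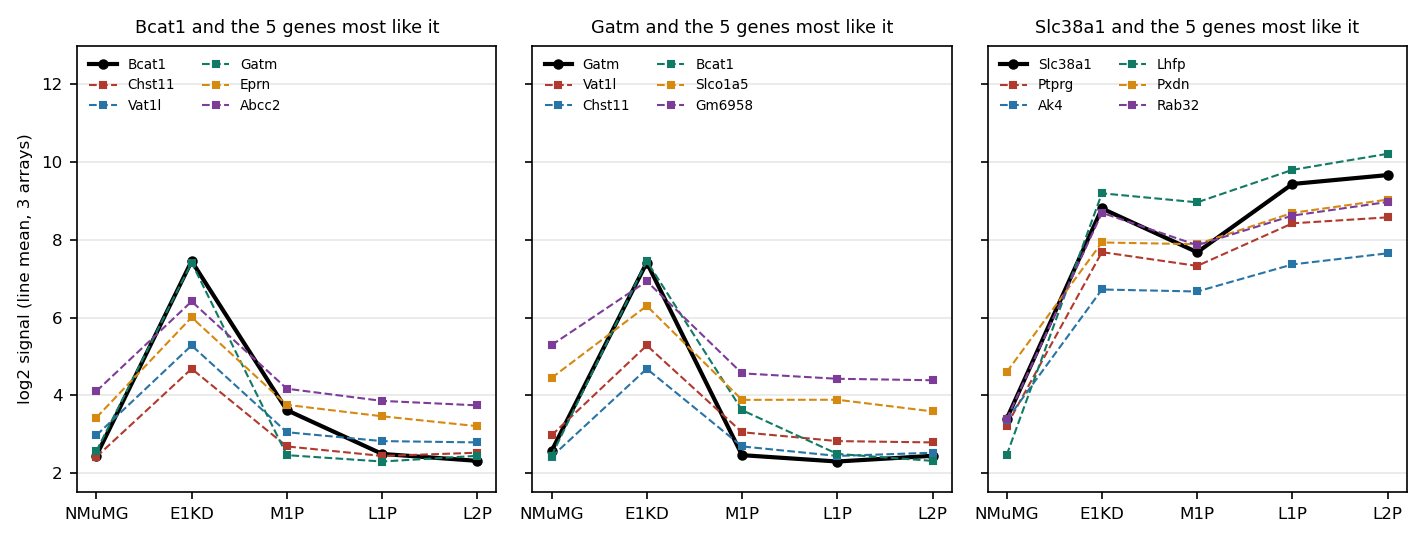
Mean log2 signal (y axis, 3 arrays per line) of Bcat1, Gatm and Slc38a1 (black) and the 5 genes most like each (dashed) in the 5 lines (x axis). The Bcat1 and Gatm groups peak in E1KD, the Slc38a1 group stays high in all silenced lines; heights of different genes are not comparable.

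Of the 6 members not chosen by their values, 1 passed the test between E1KD and NMuMG, where 9.49% of all genes did. That gene was Slc7a5, the light chain of the LAT1 exchanger that brings in leucine and other large neutral amino acids. Its log2 signal was 9.71, 9.54 and 9.12 in NMuMG, 10.84, 10.35 and 10.86 in E1KD, 11.04, 10.76 and 10.19 in M1P, 11.01, 10.92 and 10.73 in L1P, and 11.17, 11.08 and 10.80 in L2P. All 12 arrays of silenced lines lay above all 3 NMuMG arrays. Slc7a5 rose 2.34-fold in E1KD (1.23 ± 0.22, limma adjusted p = 0.00316), 2.31-fold in M1P (1.21, adjusted p = 0.00322), 2.7-fold in L1P (1.43, adjusted p = 0.000691) and 2.95-fold in L2P (1.56, adjusted p = 0.00033), each against the same NMuMG arrays. Without M1P arrays 1 and 2 the M1P difference was 0.73 (adjusted p = 0.114). Among the 4 silenced lines no Slc7a5 difference passed; L2P less E1KD was 0.33 (-0.15 to 0.82).

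Slc7a11, the cystine and glutamate exchanger xCT that feeds glutathione synthesis, was highest in the lung lines. The arrays read 5.58, 5.22 and 5.20 in NMuMG, 5.29, 6.08 and 6.41 in E1KD, 6.29, 6.20 and 5.38 in M1P, 6.27, 7.63 and 6.37 in L1P, and 6.74, 7.18 and 7.04 in L2P. Every L1P and L2P array lay above every NMuMG array, while E1KD and M1P overlapped NMuMG. Slc7a11 rose 2.68-fold in L1P (1.42 ± 0.37, limma adjusted p = 0.0188) and 3.15-fold in L2P (1.65 ± 0.37, adjusted p = 0.00777) against NMuMG. The L1P call was lost without NMuMG array 2 (adjusted p = 0.0654), NMuMG array 3 (0.064) or L1P array 2 (0.0749). The differences from E1KD were 0.83 (adjusted p = 0.454) for L1P and 1.06 (adjusted p = 0.183) for L2P. L2P exceeded M1P by 1.03 (adjusted p = 0.0496), a call that held in 8 of 24 alternative settings; among single arrays it held without E1KD array 1, L1P array 2 or L2P array 1 and was lost without any of the others (highest adjusted p 0.148, without L2P array 2).

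The other Slc7a11 probe set, 1443536_at, showed a wider step. It read 2.47 to 3.11 in NMuMG, 3.66 to 3.94 in E1KD, 2.93 to 3.19 in M1P, 4.96 to 6.19 in L1P, and 3.77, 6.15 and 6.28 in L2P. L1P exceeded NMuMG by 2.87 (limma over single-symbol probe sets, adjusted p = 0.00256) and M1P by 2.47 (adjusted p = 0.00691), and L2P exceeded them by 2.69 (adjusted p = 0.00384) and 2.30 (adjusted p = 0.0114). L2P array 1 was within the E1KD range and the other L2P arrays were not. Differences from E1KD were 1.79 (adjusted p = 0.138) and 1.62 (adjusted p = 0.168) and did not pass.

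Slc38a2, the amino acid-regulated carrier SNAT2, read 9.65, 9.95 and 10.12 in NMuMG, 10.44, 10.78 and 10.77 in E1KD, 8.38, 10.14 and 10.28 in M1P, 10.97, 10.61 and 11.04 in L1P, and 10.28, 10.77 and 10.58 in L2P. E1KD arrays lay above NMuMG arrays, and M1P array 1 was lowest of all 15. The difference between E1KD and NMuMG, 0.76 ± 0.38, did not pass (limma adjusted p = 0.28), but passed without M1P array 1, whose spread enters the shared estimate (adjusted p = 0.00812). Slc38a2 was higher in L1P than in M1P by 1.27 ± 0.38 (limma adjusted p = 0.0226), and by 0.59 without M1P arrays 1 and 2. The call ended with only the compared lines in the model (0.136) and without L1P array 1 (0.0571) or 3 (0.0783). It ended too with the mean of the probe sets of Slc38a2 (0.29, adjusted p = 0.237). Between M1P and L2P the difference of 0.94 did not pass (adjusted p = 0.0717), but passed with the replicate number as a block (0.0384). Whether the numbers pair the arrays of these lines is unclear, since M1P array 3 also deviated with L2P array 2 (correlation 0.64). The difference between M1P and L2P passed too without M1P array 2 (0.0442) or 3 (0.0147). Its weaker probe set 1429594_at went the other way, falling by 0.52 in L1P (adjusted p = 0.018) and by 0.61 in L2P (adjusted p = 0.0124) against M1P, and 1429593_at differed by 0.11 and -0.01.

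Asns, which makes asparagine from aspartate and glutamine, was high in every line and lowest in M1P. The arrays read 11.40, 11.03 and 10.88 in NMuMG, 11.49, 11.29 and 11.59 in E1KD, 10.65, 11.11 and 11.11 in M1P, 11.49, 11.84 and 11.42 in L1P, and 11.55, 11.81 and 11.67 in L2P. The M1P arrays lay below those of E1KD and of both lung lines. Asns was higher than in M1P by 0.63 ± 0.17 in L1P (limma adjusted p = 0.0176) and by 0.72 ± 0.17 in L2P (adjusted p = 0.0128). Without M1P arrays 1 and 2 the values were 0.47 and 0.57. Both calls were lost with only the compared lines in the model (0.106 and 0.136). The L1P call was also lost without M1P array 1 (0.0695) or L1P array 2 (0.0641), and the L2P call without L2P array 2 (0.0604). Its second probe set, 1433966_x_at, gave 0.68 and 0.66. Asns also fell by 0.50 from E1KD to M1P (adjusted p = 0.0499) and rose by 0.57 from NMuMG to L2P (adjusted p = 0.0452), calls that held in 6 of 24 and 13 of 25 alternative settings.

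Psat1, an enzyme of serine synthesis, was the member that was highest in NMuMG. It read 12.75, 12.56 and 12.52 in NMuMG and between 12.09 and 12.40 on the 12 arrays of silenced lines, so the groups did not overlap. The differences from NMuMG were -0.28 in E1KD (limma adjusted p = 0.152), -0.38 in M1P (adjusted p = 0.04), -0.37 in L1P (adjusted p = 0.0363) and -0.37 in L2P (adjusted p = 0.0363). These small falls held in 7 of 24, 15 of 25 and 13 of 25 alternative settings for M1P, L1P and L2P. The second probe set, 1454607_s_at, gave -0.22 for E1KD (adjusted p = 0.382), -0.17 for M1P (0.421), -0.17 for L1P (0.443) and -0.39 for L2P (0.0724).

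Bcat2, the mitochondrial counterpart of Bcat1, did not follow it. On the arrays it was 5.43, 5.34 and 5.32 in NMuMG, 5.16, 5.15 and 5.50 in E1KD, 6.36, 5.60 and 5.71 in M1P, 5.13, 5.01 and 4.70 in L1P, and 5.46, 4.67 and 4.74 in L2P. E1KD overlapped NMuMG, with a difference of -0.09 (-0.59 to 0.41, limma adjusted p = 0.874), and M1P was the highest line. Bcat2 was lower than in M1P by 0.95 ± 0.23 in L1P (limma adjusted p = 0.0111) and by 0.94 ± 0.23 in L2P (adjusted p = 0.0136). Against E1KD neither L1P (adjusted p = 0.82) nor L2P (adjusted p = 0.806) passed, nor did M1P (0.62, adjusted p = 0.0598). Without M1P arrays 1 and 2 the values were -0.76 (adjusted p = 0.114) and -0.76 (adjusted p = 0.127). The L1P call was also lost without L1P array 3 (0.0526), and the L2P call without L2P array 2 (0.0684) or 3 (0.0661).

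The members' counts are set against the share of all genes that passed. Between M1P and E1KD 1 of 6 tested members passed (Asns) with 27.6% of all genes. Between L1P and E1KD none of 6 passed in limma with 2.48% of all genes, and between L2P and E1KD none of 6 with 3.78%; Slc7a11 alone had an unadjusted p under 0.05 in each. L1P against M1P gave 4 of 7, Slc38a1 included, with a background of 39.5%, and L2P against M1P 4 of 7 with 30.4%. Between L2P and L1P none of 7 passed in limma, with 0.143% of all genes, and none had an unadjusted p under 0.05. Against NMuMG the counts were 2 of 6 for M1P (11.8% of all genes), 3 of 6 for L1P (14.8%) and 4 of 6 for L2P (14.2%); these 3 comparisons share the NMuMG arrays. Without M1P arrays 1 and 2, the counts between M1P and the lung lines were 1 of 7 each, Slc38a1, with 7.29% (L1P) and 6.28% (L2P) of all genes.

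**Figure D4:**
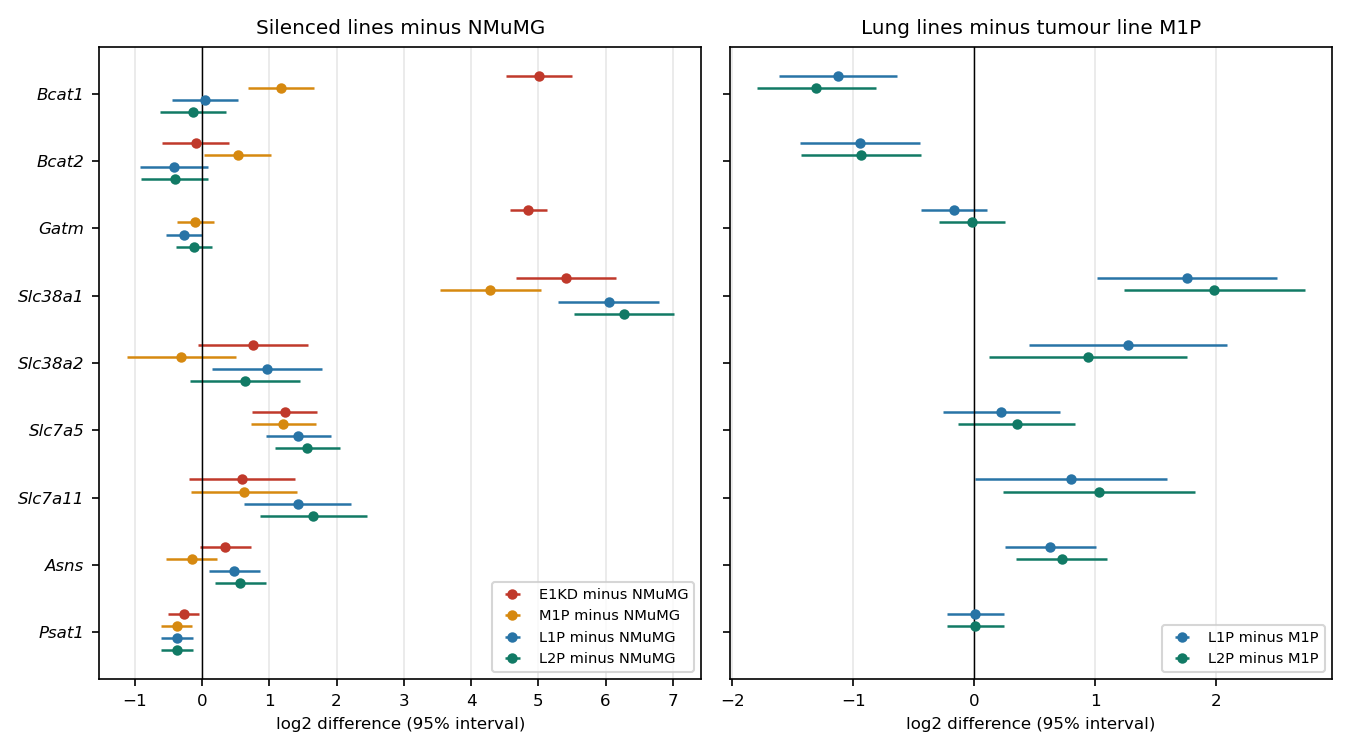
Log2 differences (x axis, points) with 95% intervals (lines) for the 9 genes (y axis): the 4 silenced lines less NMuMG at left, the lung lines less M1P at right. Intervals of Slc7a5 lie above 0 for all silenced lines. In the right panel those of Bcat1 and Bcat2 lie below 0, and those of Slc38a1, Slc38a2, Slc7a11 and Asns above it. The intervals are not adjusted for the number of genes, and Slc38a2 for L2P and Slc7a11 for L1P did not pass the test. Intervals of Bcat1, Gatm and Slc38a1 at left, and of Bcat1 and Gatm at right, belong to genes picked by these levels.

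Beyond the members, 149 other genes of 8 amino acid lists were measured. Between E1KD and NMuMG 8 rose and 16 fell (16.1%, against 9.49% of all genes), with a median difference of 0.02 against -0.07 for all genes. Leaving out single arrays changed the total of 24 to 13 (NMuMG array 2 or E1KD array 1), 14 (E1KD array 2), 15 (NMuMG array 1 or 3) or 38 (M1P array 1).

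Of 14 genes of serine, glycine and folate metabolism, 1 rose and 1 fell in E1KD. The fall was that of Gldc, the glycine decarboxylase of the glycine cleavage system, from 9.09 to 5.22 (14.6-fold, limma adjusted p = 1.29e-08); Shmt1, a serine hydroxymethyltransferase, rose by 0.58 (adjusted p = 0.0174), a call lost with the mean of its probe sets (0.178) and without NMuMG array 1 or 2 or E1KD array 1. Of 19 genes of creatine, arginine, proline and polyamines, the pathway list around Gatm, none rose and 2 fell: Prodh, the proline dehydrogenase, by 2.25 (adjusted p = 6.81e-06) and Asl by 0.83 (adjusted p = 0.0407, lost without any NMuMG or E1KD array). Of 20 genes of branched-chain breakdown, the steps after BCAT, 1 rose and 3 fell. Bckdha, a subunit of the branched-chain keto acid dehydrogenase, fell by 1.41 (adjusted p = 0.00231) and Ivd, which acts on the leucine branch, by 1.37 (adjusted p = 0.00134). Dbt, another subunit of that dehydrogenase, rose by 2.03 (adjusted p = 0.0345), a call lost without any one NMuMG or E1KD array.

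Of 13 genes of glutamine, glutamate, aspartate and alanine metabolism, 2 rose and 3 fell in E1KD. The cytosolic aspartate aminotransferase Got1 fell by 1.06 (limma adjusted p = 0.000464) and the glutamine synthetase Glul by 1.17 (adjusted p = 0.0308), while the CTP synthase Ctps and the mitochondrial aminotransferase Got2 rose by 0.64 (adjusted p = 0.0097) and 0.63 (adjusted p = 0.0155). The Glul call was lost without NMuMG array 1 or 2 or E1KD array 1 or 2, and that of Got2 without NMuMG array 2 or 3, E1KD array 1 or 2, or with the mean of its probe sets (adjusted p = 0.265). Of 32 other transporters, none rose and 4 fell, among them Slc7a7, by 1.78 (adjusted p = 0.0152), and Slc43a2, by 1.02 (adjusted p = 0.0291). The Slc7a7 call was lost without NMuMG array 1 or E1KD array 1 or 2 (highest adjusted p 0.0778) and with the mean of its probe sets. The Slc43a2 call was lost without any one NMuMG or E1KD array, with quantile normalization, and with the mean of its probe sets (adjusted p = 0.135). Of 15 genes of cysteine, methionine and glutathione, 3 fell, including the glutathione reductase Gsr by 0.82 (adjusted p = 0.00383). Of 19 cytosolic aminoacyl-tRNA synthetases 3 rose, Iars by 0.84 (adjusted p = 0.00311) and Tars by 0.77 (adjusted p = 0.0303) among them, and 16 of 19 were higher in E1KD; the Tars call was lost without any NMuMG or E1KD array. Of 17 genes of the amino acid response 1 rose, Vldlr, by 1.77 (adjusted p = 0.00666).

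**Figure D5:**
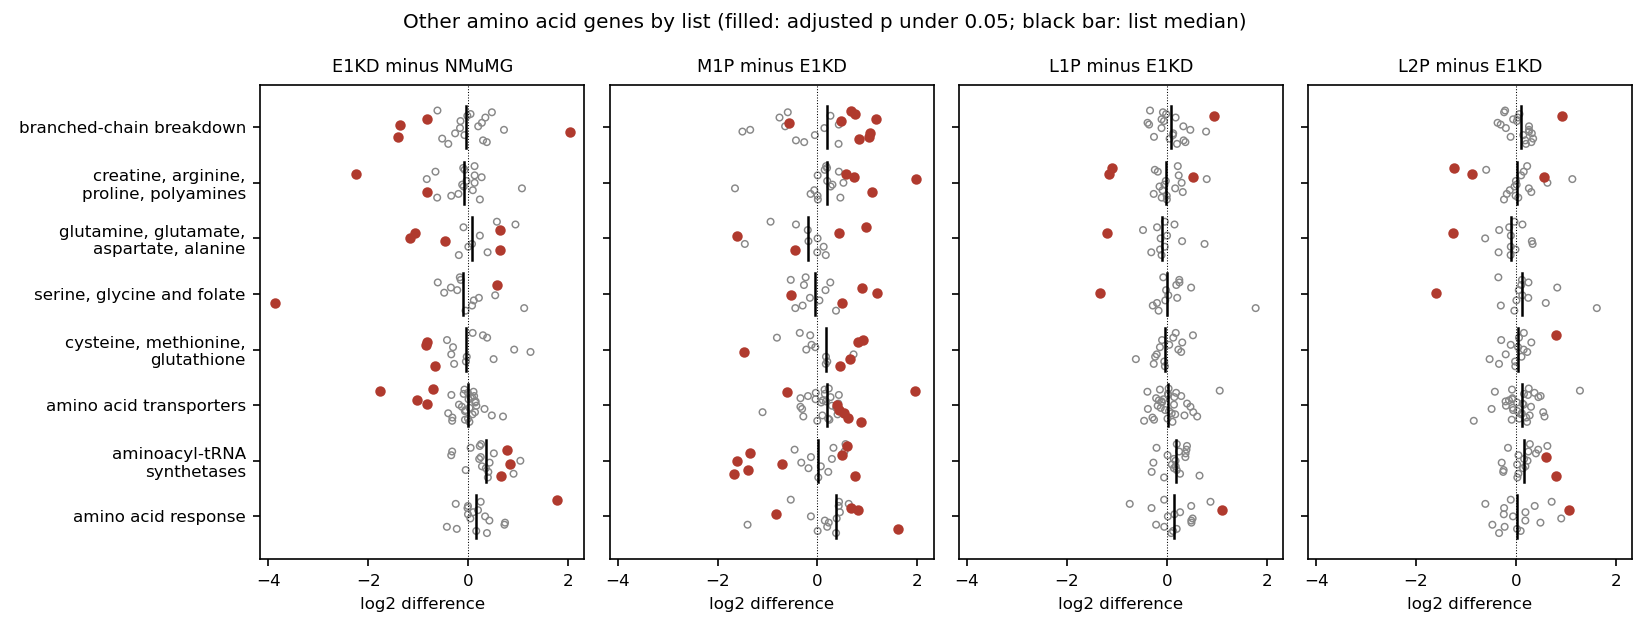
Log2 difference (x axis) of each of the 149 other genes, by list (y axis), in 4 comparisons; filled points passed at an adjusted p under 0.05, open points did not, and the black bar is the list median. Gldc is the point near -3.9 at left, and 7 points are filled for L1P and 10 for L2P.

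Between the lung lines and E1KD, 3 of these genes rose and 4 fell in L1P (4.7%, against 2.48% of all genes) and 6 rose and 4 fell in L2P (6.71%, against 3.78%), with medians of 0.03 and 0.06 against -0.03 and -0.0046 for all genes. Got1 fell further in both, by 1.19 (limma adjusted p = 0.000519) and 1.25 (adjusted p = 0.000235), and Prodh by 1.16 (adjusted p = 0.00418) and 0.88 (adjusted p = 0.0196). Slc6a8, the creatine transporter, fell by 1.09 (adjusted p = 0.0242) and 1.24 (adjusted p = 0.00789), but the L1P call was lost without L1P array 1 or 2 or any E1KD array, and with another choice of probe set its adjusted p was 1 in L1P and 0.986 in L2P. Mthfd2l, a mitochondrial folate enzyme, fell by 1.34 (adjusted p = 0.00392) and 1.60 (adjusted p = 0.000755); with the mean of its probe sets its adjusted p was 1 and 0.716. Pcca, a subunit of propionyl-CoA carboxylase, rose by 0.94 (adjusted p = 0.00979) and 0.92 (adjusted p = 0.00849), and the ornithine aminotransferase Oat by 0.52 (adjusted p = 0.0164) and 0.57 (adjusted p = 0.00702). Without E1KD array 2 neither Pcca call nor the Oat call in L1P held. The L1P calls were also lost without L1P array 2 for both genes, and without E1KD array 3 or L1P array 3 for Oat, and with the mean of its probe sets Pcca gave an adjusted p of 0.0821 and 0.119. The Prodh call in L2P was lost without E1KD array 1 (adjusted p = 0.0802), L2P array 2 or L2P array 3, and with quantile normalization.

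Among the response genes Nupr1, a stress-induced chromatin protein, rose by 1.10 in L1P (limma adjusted p = 0.0179) and by 1.07 in L2P (adjusted p = 0.016), both lost without E1KD array 2. The L1P call was lost too without L1P array 1 or 2, and the L2P call without L2P array 2. 3 other genes passed in L2P and not in L1P: Mtap (0.79, adjusted p = 0.0181), Cars (0.81, adjusted p = 0.0114) and Nars (0.61, adjusted p = 0.0433) rose. In the direct comparison of L2P with L1P 0 of 149 passed in limma and 3 had an unadjusted p under 0.05. The Mtap call was lost without any one E1KD array or L2P array 1 or 3 (highest adjusted p 0.0788), and the Cars call without E1KD array 2 and with the mean of its probe sets (0.093). The Nars call held in 13 of 25 alternative settings. The totals of 7 and 10 became 3 and 5 when E1KD array 2 was left out, 14 and 19 when M1P array 1 was, and 3 for L1P when L1P array 2 was.

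M1P against E1KD gave 32 rises and 12 falls among the 149 genes (29.5%, against 27.6% of all genes), but 3 and 3 without M1P arrays 1 and 2 (4.45% of all genes), and 0 and 0 with array weights or with only the compared lines in the model. Of the genes named by rule, Gamt, which methylates the product of GATM to creatine, rose by 1.97 (limma adjusted p = 0.00223) and by 1.24 without those arrays (adjusted p = 0.0412). Bckdk, the kinase that inhibits the branched-chain dehydrogenase, rose by 1.04 (adjusted p = 0.00187) and by 0.74 without them (adjusted p = 0.0396). Both calls were lost with only the compared lines and with array weights (adjusted p = 0.108 for Gamt and 0.0999 for Bckdk). No other named gene passed without them: Atf5 was at 1.62 with all arrays and 1.28 without (adjusted p = 0.0547), Slc7a7 at 1.95 and 0.80 (adjusted p = 0.233), Eprs at -1.67 and -0.65 (adjusted p = 0.399), and Lars at -1.62 and -0.59 (adjusted p = 0.244). Leaving out single arrays changed the total of 44 to 14 (E1KD array 2), 21 (E1KD array 3 or M1P array 1), 27 (E1KD array 1) or 70 (M1P array 3).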

How the data were processed

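Total RNA of 5 lines, 3 Affymetrix arrays each, was measured from 100 ng per array. The authors deposited log2 signals for 45101 features; the submitters' processing notes name RMA, MAS5 and Affymetrix Expression Console, with versions and roles not given in the sources used here. Values were used as deposited, and detection calls were not used. Features were named from the platform annotation, with 34741 symbols updated through Entrez identifiers in the GRCm38.p6 RefSeq table and 204 kept; 932 features had several symbols, 9160 had none and 64 were controls. The probe set of highest mean stood for each of 18193 genes. limma 3.58.1 in R 4.3.3 fitted 1 coefficient per line to all 15 arrays (10 residual and 2.98 prior degrees of freedom), with moderated two-sided tests, Benjamini-Hochberg adjustment over all genes of a comparison, and a call at an adjusted p under 0.05. The script was tested on simulated data with the same spread in every line, which does not check the wider spread of M1P. Over the 10 comparisons it recovered 58 to 75% of changes of 1 log2 unit. Of its calls 2.45 to 8.06% were false. Probe sets were tested in the same way. The number of arrays limits the precision.

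The members and the lists were chosen with earlier results of these data known. Named genes were the members, Pcbp1, up to 2 largest rises and falls among passing genes per list and comparison (4 comparisons), and the 5 genes most correlated with each of Bcat1, Gatm and Slc38a1. Of 163 listed genes 149 were measured. Alternatives were quantile normalization, other choices of probe set, a filter at log2 5, only the compared lines, array weights, a variance trend, a replicate block, M1P arrays left out and each array left out. By the correlation of deviations from the line means, only M1P and L2P had all 3 same-numbered pairs over 0.1. Arrays of other number passed 0.1 too, as M1P array 3 with L2P array 2 (0.64), so pairing by number is not shown. The counts among derived lines leave out Bcat1 and Gatm, whose choice used those levels.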

Additional observations from a re-analysis of the deposited data

Results flagged for a closer look

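The 8 results here are differences from E1KD that were not the same in a lung line and in the tumour line M1P, by limma's test of the difference itself at an adjusted p under 0.05. E1KD drops out of that difference, so they are the results for L1P less M1P and L2P less M1P given above. For L1P less M1P the difference was -0.95 for Bcat2, 1.76 for Slc38a1, 1.27 for Slc38a2 and 0.63 for Asns. For L2P less M1P it was -0.94 for Bcat2, 1.99 for Slc38a1, 1.03 for Slc7a11 and 0.72 for Asns. The comparisons share the M1P arrays, and 39.5% (L1P) and 30.4% (L2P) of all genes passed in them. On its other probe set, 1415903_at, Slc38a1 did not pass (limma adjusted p = 0.479 and 0.0899). Slc38a2 was lower by 0.52 in L1P than in M1P on 1429594_at (limma adjusted p = 0.018). The other probe sets of Asns and Slc7a11 passed in the same direction as these results. Without M1P arrays 1 and 2, the Slc38a1 differences were 1.30 (L1P) and 1.53 (L2P), and those of Bcat2 were -0.76 in both. Asns gave 0.47 and 0.57, Slc38a2 0.59 for L1P and Slc7a11 1.61 for L2P. With 1 M1P array left no spread within M1P enters, so that setting cannot decide which calls hold. With only the compared lines in the model none of the 8 had an adjusted p under 0.05. The Slc7a11 result (adjusted p = 0.0496) held in 8 of 24 alternative settings.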

How the results depend on the processing

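The tested members passing per comparison are given here where the number moved by over 1.5 times; no member difference turned its direction among those called. For E1KD less NMuMG it was 1, with only these lines in the model 2, with array weights 3, and 2 without M1P arrays 1 and 2 or without M1P. For M1P less E1KD it was 1, with quantile normalization 3, with the probe set of largest variance 0, with the mean of probe sets 0, with the filter at log2 5 2, with only these lines 0, with array weights 0, with a variance trend 2, with the replicate block 2, and without M1P arrays 1 and 2 0. For L2P less E1KD it was 0 and with array weights 2. For L1P less M1P and for L2P less M1P it was 4, with only these lines 0, with array weights 1, and without M1P arrays 1 and 2 also 1. For M1P less NMuMG it was 2, with the largest-variance probe set or the mean of probe sets 1, and 0 with only these lines, array weights or without M1P arrays 1 and 2. For L1P less NMuMG it was 3, and 5 with only these lines, array weights, without M1P arrays 1 and 2 or without M1P. Leaving out each array gave 1 to 2 for E1KD less NMuMG, 0 to 3 for M1P less E1KD, 2 to 4 for L1P less M1P, 1 to 4 for L2P less M1P, 1 to 2 for M1P less NMuMG, 1 to 5 for L1P less NMuMG and 2 to 5 for L2P less NMuMG. The cause was not tested. Settings with fewer arrays gave fewer calls in some comparisons and more in others. The number of all genes passing moved too. In the main model, with only the compared lines and with array weights it was 1727, 3439 and 4771 for E1KD less NMuMG. It was 5015, 67 and 164 for M1P less E1KD, and 7186, 288 and 434 for L1P less M1P. For M1P less E1KD it moved little with quantile normalization (5031) or the mean of probe sets (5207), where the member count moved. Whether the members moved apart from all genes was not tested. The weights estimate stopped before convergence.

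Slc7a5 passed in 25 of 25 settings for E1KD, L1P and L2P less NMuMG. Among same-numbered arrays of different lines, 16 of 30 pairs had a correlation of deviations over 0.1, against 24 of 60 pairs of other numbers. All 3 same-numbered pairs of M1P with L2P did (0.13 to 0.75), as did the 6 pairs of array 1 among silenced lines (0.37 to 0.75). M1P array 3 with L2P array 2, of other number, reached 0.64. With the replicate block the count for L2P less M1P was 5, Slc38a2 gaining its call. In the other comparisons, same-numbered pairs were not all over 0.1. There the block moved the count for M1P less E1KD to 2 (Bcat2 and Slc38a2, with Asns lost). It also ended the Asns call for L2P less NMuMG. An n of 3 arrays per line and 1 line per condition limit every result, and no detection calls or signal over background were available for the low signals.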
